A study of Mus musculus with 4 samples.

Results

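The large ribosomal subunit of mouse oocytes was examined through its 52 protein genes, among 23235 genes measured in all. The members are the Rpl and Rplp genes of the cytosolic ribosome, chosen by their symbols. Pseudogenes and mitochondrial ribosomal protein genes were left out, and no measured value entered the choice. Levels are in FPKM, which divides the fragments of a gene by the length of its transcript and by the fragments mapped in the library. In some library 51 of the 52 reached 1 FPKM, and these are called measured below. The exception was Rpl3l, a paralog known from skeletal muscle and heart, with 0.741 FPKM in its highest library. The members lie on 18 chromosomes, and Rpl10, Rpl36a and Rpl39 are on the X chromosome.

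The libraries compared oocytes with and without deletion of Dcaf13, at 2 stages of growth. Fully grown deletion oocytes were Dcaf13fl/fl;Gdf9-Cre and were taken at about 23 days of age, 48 h after the mice were injected with 5 IU of PMSG, a gonadotropin that stimulates follicle growth. Fully grown control oocytes were Dcaf13fl/fl, of the same age and with the same injection. Growing deletion oocytes were Dcaf13fl/fl;Gdf9-Cre and were taken at about 14 days, with no injection described, and growing control oocytes were Dcaf13fl/fl of that age. In all 4 groups both Dcaf13 alleles were floxed and the strain was C57B6, and the controls are listed without Cre. Cre was under the Gdf9 promoter, which is active in oocytes, so somatic cells of the follicle are not its target. Stage, age and PMSG differ together and cannot be told apart. Each group was 1 library of 10 pooled oocytes, whose polyadenylated RNA was read after Smart-seq2 amplification, which copies whole messages of a few cells. Without replicates each value comes from 1 library, no error can be given, and no test was run.

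The large subunit of the cytosolic ribosome, the 60S, holds the peptidyl transferase centre, where amino acids are joined, and the tunnel through which the new chain leaves. Its proteins are made in the cytoplasm, imported into the nucleus and assembled with ribosomal RNA in the nucleolus. A growing oocyte builds up a store of ribosomes and messages that serves the egg and the early embryo, and a fully grown oocyte becomes transcriptionally silent. DCAF13 takes part in ribosome assembly in the nucleolus and, in a separate role, brings substrates to the ubiquitin ligase CRL4. Ribosomal protein messages commonly start with a C inside a run of pyrimidines, the terminal oligopyrimidine tract, which couples their translation to growth signals.

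Pyrimidine runs near the annotated start were long in some members and short in others. The search asked only for a run near the start, not for a start at a C inside it. The tract itself was therefore not tested. The lines below give 30 bases around the start annotated by RefSeq (GRCm38.p6), 15 on each side, read along the gene's strand, for 4 members with long pyrimidine runs and for the paralog Rpl10l, which has no run of 8. Capitals mark the part of the longest run of C and T that lies inside the window. The sites are chr2:39005117-39005146 on the minus strand for Rpl35, chr3:130730323-130730352 on the minus strand for Rpl34, chr7:109519180-109519209 on the plus strand for Rpl27a, chr14:18270972-18271001 on the minus strand for Rpl15 and chr12:66284387-66284416 on the minus strand for Rpl10l.
Rpl35: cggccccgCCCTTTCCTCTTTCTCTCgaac
Rpl34: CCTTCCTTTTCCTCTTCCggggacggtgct
Rpl27a: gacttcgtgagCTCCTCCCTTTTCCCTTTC
Rpl15: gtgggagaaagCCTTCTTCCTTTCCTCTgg
Rpl10l: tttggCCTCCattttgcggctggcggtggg
The run spans 18 bases at Rpl35, 20 at this one of the RefSeq starts of Rpl34, 20 at Rpl27a and 17 at Rpl15, against 5 at Rpl10l. These examples do not set core genes apart from paralogs. The core genes Rpl41 and Rpl24 had runs of 3, and the paralog Rpl22l1 had 10. RefSeq promoters were found for 40 of the 52 members. A run of 8 or more pyrimidines within 20 bases of the start was present in 20 of their 47 promoters, or 42.6%, against 16.0% of all 32851 promoters in the table and 15.9% of those of genes at 1 FPKM or more. The small subunit genes had it in 41.4% of their promoters. The 8-base word CCGGAAGT, the form bound by ETS-family factors, was sought on both strands, where its other strand reads ACTTCCGG. It lay within the 300-base promoter (250 bases before the start and 50 after) in 7 of the 47, or 14.9%, against 8.09% of the promoters of genes at 1 FPKM or more and 3.89% of all promoters. Both motifs were chosen after values had been seen, and a match describes letters, not binding.

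The paralogs matter here because several members have a close relative that could share reads with them. The next lines give the first 60 coding bases of 3 pairs from GENCODE M21 (GRCm38), 5′ to 3′. Capitals mark the bases that differ within a pair. Rpl36a, Rpl39 and Rpl10 are on the X chromosome, while Rpl36al and Rpl10l are on chromosome 12 and Rpl39l is on chromosome 16.
Rpl36a: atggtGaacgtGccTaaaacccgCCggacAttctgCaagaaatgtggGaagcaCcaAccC
Rpl36al: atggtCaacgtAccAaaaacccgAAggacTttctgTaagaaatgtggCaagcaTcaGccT
Rpl39: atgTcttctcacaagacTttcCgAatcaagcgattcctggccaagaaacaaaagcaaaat
Rpl39l: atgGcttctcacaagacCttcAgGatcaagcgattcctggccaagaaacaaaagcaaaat
Rpl10: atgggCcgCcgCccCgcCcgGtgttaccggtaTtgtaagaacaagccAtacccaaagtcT
Rpl10l: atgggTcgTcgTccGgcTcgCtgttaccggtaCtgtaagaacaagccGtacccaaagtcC
Rpl36a and Rpl36al differ at 11 of these 60 bases, Rpl39 and Rpl39l at 4, and Rpl10 and Rpl10l at 9. Over the whole coding parts the identity was 87.9%, 85.3% and 84.8% for the same 3 pairs. The longest stretch with no difference was 24 bases in the first pair, 38 in the second and 23 in the third. Processed copies can be closer still, and 35 of the 52 members have at least 1 named pseudogene in GENCODE, 186 in all.

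Summed FPKM, which is no measure of depth, was 678437 in fully grown deletion oocytes, 669104 in fully grown controls, 665945 in growing deletion oocytes and 649397 in growing controls. Sequencing depth is not stated. Low values gave relative depths of 1.11, 1.01 and 1.04 for the first 3 libraries against the growing control. Dcaf13 stood at 64.0 FPKM against 160.2 FPKM in fully grown deletion and control oocytes, and at 38.9 FPKM against 96.1 FPKM in growing deletion and control oocytes, or 39.95% and 40.5% of the control level. The 14 oocyte markers were present, with medians between 1412 and 1548 FPKM. Granulosa cell markers reached 1 FPKM for 6 of 10 genes, with sums of 29.5 FPKM in fully grown deletion, 28.1 FPKM in fully grown control, 18.1 FPKM in growing deletion and 34.9 FPKM in growing control oocytes. Of the 6 theca or stroma markers and the 3 blood markers none reached 1 FPKM, and of the 2 endothelial markers Pecam1 was present while Cdh5 was at 0. The part of depth and of these other markers in the results below was not tested.

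Large subunit messages were among the most abundant of the oocyte. Together they held 6.02% of summed FPKM in fully grown deletion oocytes, against 5.20% in fully grown controls. In growing oocytes they held 5.58% after deletion, against 4.84% in controls. The small subunit's 33 genes held 4.501% against 3.92% in fully grown deletion and control oocytes, and 4.11% against 3.63% in growing deletion and control oocytes. FPKM is a share of each library, so RNA per oocyte is not measured, and a larger share cannot be told apart from less RNA of other genes.

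The median member stood at 596 FPKM in fully grown deletion oocytes, 522 FPKM in fully grown controls, 563 FPKM in growing deletion oocytes and 438 FPKM in growing controls. The median of all genes at 1 FPKM or more lay between 10.7 and 11.1 FPKM. Between 45 and 46 of the 52 members passed 100 FPKM in each library. At 1000 FPKM or more there were 13 members in fully grown deletion and 12 in fully grown control oocytes, and 13 in growing deletion and 6 in growing control oocytes. Of the 500 most abundant genes of each library, 37 were members in fully grown deletion, 35 in fully grown control, 37 in growing deletion and 33 in growing control oocytes.

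Rpl41 was the most abundant member. It encodes the smallest ribosomal protein, a short basic peptide at the interface with the small subunit. Its level was 4611 FPKM in fully grown deletion oocytes, 4031 FPKM in fully grown controls, 4111 FPKM in growing deletion oocytes and 3664 FPKM in growing controls. Rpl35 followed by the mean over the libraries, at 2798, 2486, 2407 and 2297 FPKM in the same order. Rpl39, at 2855, 2530, 2200 and 1951 FPKM, was above it in both fully grown libraries and below it in both growing ones. Both encode proteins at the exit tunnel, RPL35 at its rim and RPL39 in its wall. In all 3 genes the deletion library was above the control library of its stage, but with a trend on GC content and length removed the growing change was -0.11 for Rpl35 and -0.02 for Rpl41. At the low end of the core genes were Rpl22, with a mean of 44.9 FPKM over the 4 libraries, Rpl15 with 79.3 FPKM and Rpl9 with 86.1 FPKM. Proteins of the subunit are present in equal numbers, apart from the P stalk, whereas the mean message levels of the core genes ran between 44.9 FPKM for Rpl22 and 4104 FPKM for Rpl41.

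**Figure D1:**
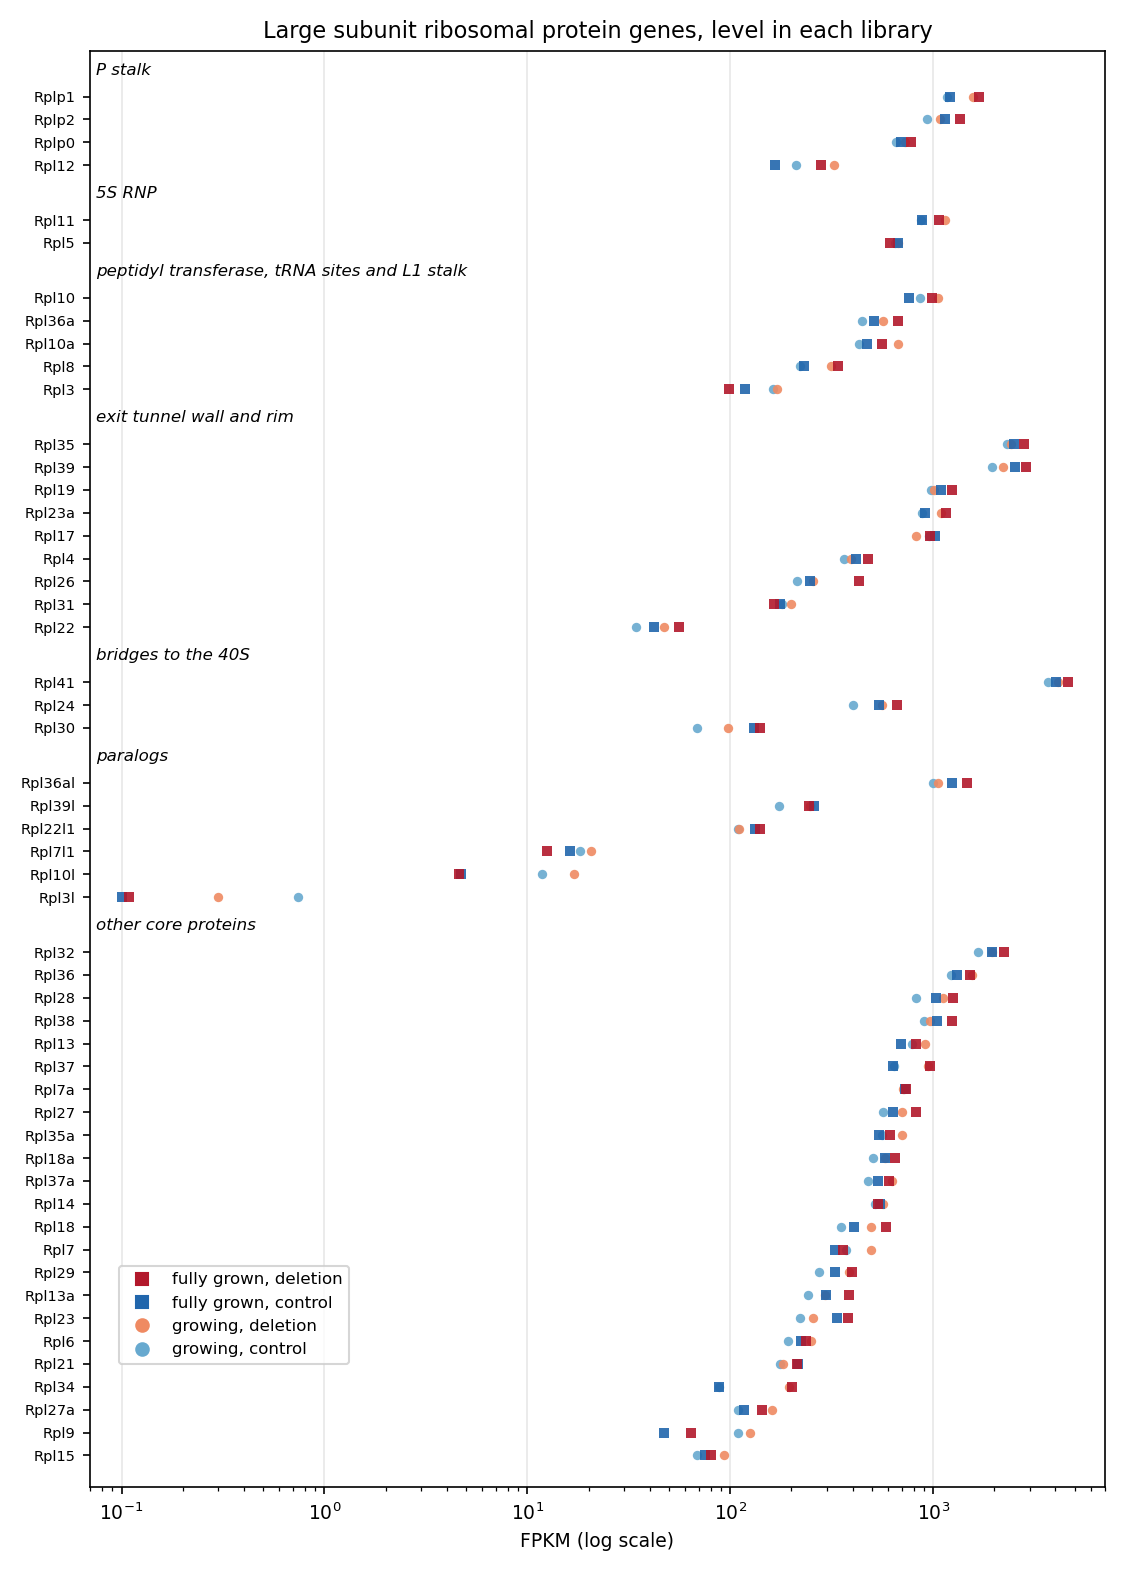
FPKM of the 52 large subunit ribosomal protein genes on a log axis, grouped by role and ordered by mean level within a role, with squares for fully grown and circles for growing oocytes and 1 library per point. Most members lie between 100 and 1000 FPKM, Rpl41 is highest at 3664 to 4611 FPKM, and Rpl3l is lowest at 0.101 to 0.741 FPKM.

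Deletion of Dcaf13 went with higher large subunit messages at both stages. In fully grown oocytes 42 of 51 measured members were above the control library, where 53.3% of all 11806 genes at 1 FPKM or more were above it. In growing oocytes 49 of 51 were above, against 57.1% of all such genes. The median change, as a difference in log2(FPKM + 1) between deletion and control, was 0.20 in fully grown and 0.30 in growing oocytes, while the median of all genes was 0.03 and 0.07. The log scale with 1 added understates the change of low genes. Changes ranged between -0.36 and 1.19 in fully grown and between -0.21 and 1.14 in growing oocytes. A change of 0.5 or more was seen for 6 members in fully grown oocytes, where 9.34% of all genes reached it, and for 8 in growing oocytes, where 14.9% did.

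Abundant genes as a class were also compared, since the members are nearly all abundant. Among the 1206 genes with a mean of 100 FPKM or more, the median change was 0.03 in fully grown and 0.04 in growing oocytes. Their middle 80% lay between -0.30 and 0.32 and between -0.32 and 0.36. The middle 80% of the large subunit members lay between -0.07 and 0.52 in fully grown and between 0.06 and 0.52 in growing oocytes. Most members thus differed by a modest amount in the same direction. Over genes that reached 5 FPKM in either library compared, the deletion change increased with the GC content of the transcript, with Spearman's rho of 0.41 in fully grown and 0.37 in growing oocytes. The members' transcripts had a median GC content of 51.4%, against 49.9% for genes at 5 FPKM or more. They were much shorter, with a median length of 853 bases against 2581 for those genes. With the trend on GC content and length removed, the members' median change was 0.26 in fully grown and 0.23 in growing oocytes.

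**Figure D2:**
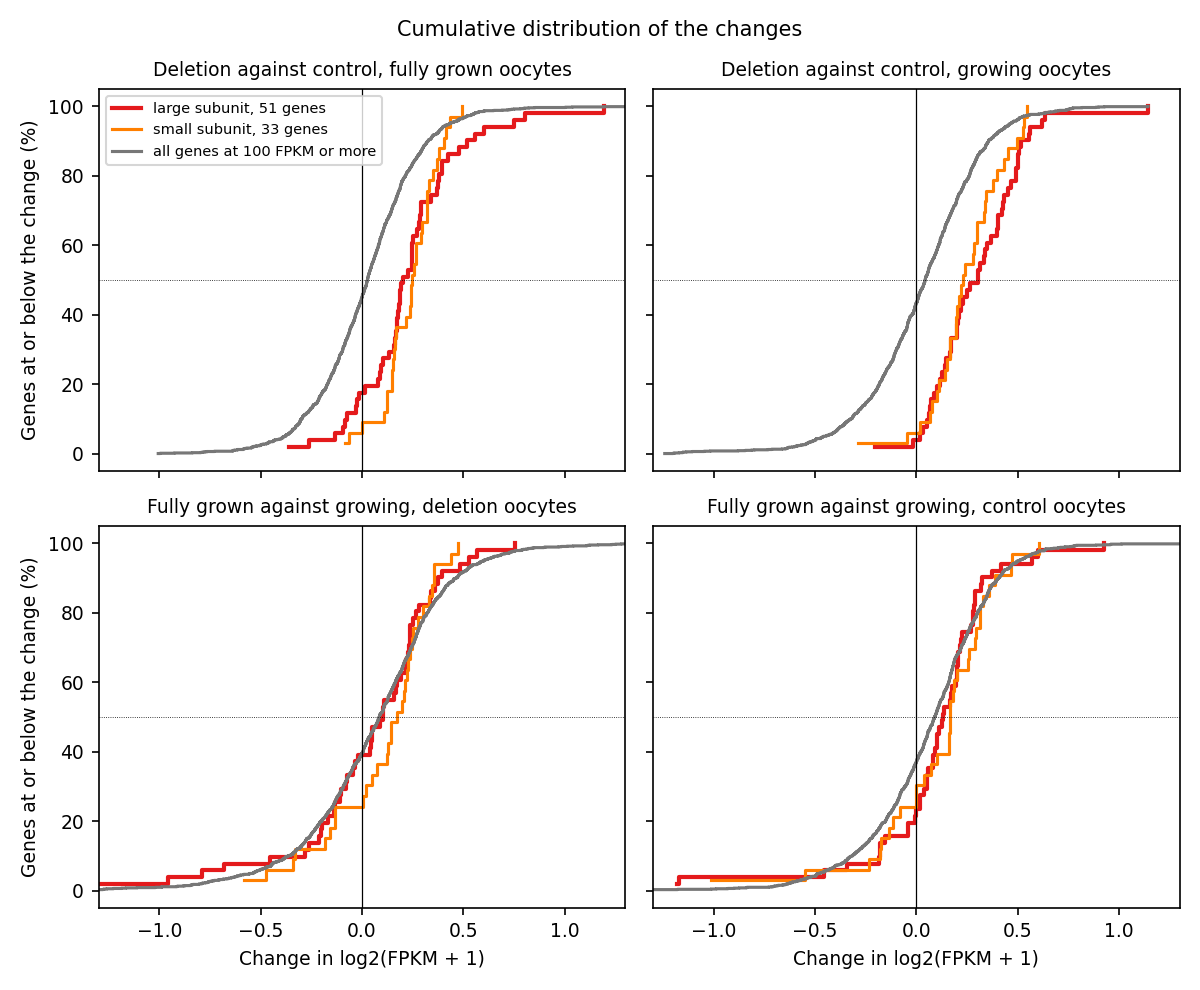
Cumulative share of genes (percent) against the change in log2(FPKM + 1), for 51 large subunit genes, 33 small subunit genes and all genes at 100 FPKM or more, in 4 comparisons of 1 library with 1 library; changes beyond the axis range are not drawn. In the upper panels both subunits lie right of the abundant genes, with large subunit medians of 0.20 in fully grown and 0.30 in growing oocytes, and in the lower panels the curves lie close together.

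Small subunit genes were also mostly above the control. Of these 33 genes 31 were above the control in fully grown and 31 in growing oocytes, with median changes of 0.24 and 0.23. Assembly factors of the 60S, nucleolar and cytoplasmic proteins that build the subunit and do not stay in it, were read in the same way. Of 59 measured, 39 were above the control in fully grown oocytes with a median change of 0.09, and 50 in growing oocytes with a median of 0.26. By the size rule, which asks for 5 FPKM in 1 of 2 libraries and a change of at least 1 either way, no gene of the small subunit or assembly lists was higher or lower after deletion at either stage.

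The P stalk recruits translation factors to the ribosome. It is built of Rplp0, the Rplp1 and Rplp2 dimers, and Rpl12 at its base. Rplp0 stood at 778 FPKM in fully grown deletion oocytes, against 695 FPKM in controls, and at 724 FPKM in growing deletion oocytes, against 656 FPKM in controls. Rplp1 was at 1683 FPKM against 1208 FPKM in fully grown deletion and control oocytes, and at 1569 FPKM against 1166 FPKM in growing deletion and control oocytes. Rplp2 was at 1354 FPKM against 1142 FPKM in fully grown deletion and control oocytes, and at 1074 FPKM against 933 FPKM in growing deletion and control oocytes. All 3 were above the control at both stages, Rplp0 by the least. On the log2 scale Rpl12 had the largest change of the stalk at both stages. Rpl12 was at 281 FPKM against 167 FPKM in fully grown deletion and control oocytes, and at 325 FPKM against 212 FPKM in growing deletion and control oocytes. Its changes of 0.75 and 0.62 compare with 0.16 and 0.14 for Rplp0, in fully grown and growing oocytes. The stalk's median changes were 0.36 in fully grown and 0.31 in growing oocytes. With the GC and length trend removed they were 0.36 and 0.13, with all 4 genes above the control at both stages.

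The 5S RNP genes Rpl5 and Rpl11 encode the proteins that carry 5S ribosomal RNA into the subunit and that bind MDM2 when assembly is disturbed. Rpl11 was at 1065 FPKM against 877 FPKM in fully grown deletion and control oocytes, and at 1144 FPKM against 866 FPKM in growing deletion and control oocytes. Rpl5 was at 609 FPKM against 668 FPKM in fully grown deletion and control oocytes, and at 667 FPKM against 651 FPKM in growing deletion and control oocytes. Rpl11 was thus above the control at both stages, while the changes of Rpl5 were small and their sign depended on the processing. The changes were 0.28 and 0.40 for Rpl11, and -0.13 and 0.04 for Rpl5, in fully grown and growing oocytes. For Rpl5 they were 0.02 and 0.21 with the GC and length trend removed, and -0.20 and -0.01 with median-ratio rescaling.

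Around the peptidyl transferase centre, the tRNA sites and the L1 stalk, 4 of 5 members were above the control in fully grown and 5 of 5 in growing oocytes, with median changes of 0.38 and 0.34. Rpl8, which encodes a protein close to the catalytic centre, stood at 339 FPKM against 230 FPKM in fully grown deletion and control oocytes, and at 315 FPKM against 221 FPKM in growing deletion and control oocytes. Rpl10a, which encodes the L1 stalk protein that helps release the spent tRNA, stood at 559.6 FPKM against 471 FPKM in fully grown deletion and control oocytes, and at 670.3 FPKM against 431 FPKM in growing deletion and control oocytes. For both genes each deletion library was above both control libraries. The changes of Rpl8 were 0.56 in fully grown and 0.51 in growing oocytes, or 0.46 and 0.28 with the GC and length trend removed. Those of Rpl10a were 0.25 and 0.64, or 0.27 and 0.52 with that trend removed. Rpl3, whose protein reaches toward the catalytic centre, ran differently, at 98.1 FPKM against 118 FPKM in fully grown deletion and control oocytes, and at 170.3 FPKM against 162 FPKM in growing deletion and control oocytes. Its change was -0.26 in fully grown and 0.07 in growing oocytes.

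Of the exit tunnel genes 7 of 9 were above the control in fully grown oocytes, with a median change of 0.17, and 8 of 9 in growing oocytes, with a median of 0.14. With the GC and length trend removed 9 and 6 were above. Rpl17 was below the control at both stages, with 962 FPKM against 1020.1 FPKM in fully grown deletion and control oocytes, and with 823 FPKM against 950.0 FPKM in growing deletion and control oocytes. Its changes were -0.08 and -0.21, or 0.03 and -0.14 with that trend removed. Rpl31, at the rim of the tunnel, was at 164 FPKM against 175 FPKM in fully grown deletion and control oocytes, and at 199.5 FPKM against 180.4 FPKM in growing deletion and control oocytes. Rpl26, next to the rim, had the second largest change of fully grown oocytes at 0.80, with 430.3 FPKM against 246 FPKM in deletion and control oocytes, while its growing libraries held 255 FPKM and 214 FPKM after deletion and in controls. Rpl26 is 1 of 3 members whose reads may be split with another row, described below.

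All 3 bridge genes were above the control at both stages, with median changes of 0.19 in fully grown and 0.47 in growing oocytes. With Rpl30 summed with a second row that the annotation has at its place, the medians were 0.29 and 0.17, and with the GC and length trend removed 2 of 3 were above in growing oocytes. Rpl24, whose protein contacts the small subunit, stood at 660.5 FPKM against 540.5 FPKM in fully grown deletion and control oocytes, and at 560.1 FPKM against 404 FPKM in growing deletion and control oocytes. Rpl30 stood at 141 FPKM against 131 FPKM in fully grown deletion and control oocytes, and at 97.3 FPKM against 68.4 FPKM in growing deletion and control oocytes. In growing oocytes the changes were 0.47 for Rpl24 and 0.50 for Rpl30, and in fully grown oocytes 0.29 and 0.10.

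The remaining 23 core genes had median changes of 0.23 in fully grown and 0.33 in growing oocytes, with 21 and 22 of them above the control. Rpl37, which encodes a zinc-binding protein, was at 965 FPKM against 636 FPKM in fully grown deletion and control oocytes, and at 938 FPKM against 638 FPKM in growing deletion and control oocytes. Both of its deletion libraries lay above both control libraries, with changes of 0.60 and 0.55. Rpl18, another core protein gene, held 583 FPKM against 407 FPKM in fully grown deletion and control oocytes, and 494 FPKM against 349 FPKM in growing deletion and control oocytes. Rpl27a held 143 FPKM against 117 FPKM in fully grown deletion and control oocytes, and 161 FPKM against 109 FPKM in growing deletion and control oocytes, with changes of 0.29 and 0.56. Rpl7a and Rpl21 were nearly level. Rpl7a held 730.1 FPKM against 724 FPKM in fully grown deletion and control oocytes, and 706 FPKM against 715 FPKM in growing deletion and control oocytes. Rpl21 held 212.5 FPKM against 215 FPKM in fully grown deletion and control oocytes, and 182 FPKM against 176 FPKM in growing deletion and control oocytes.

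Members were also grouped by disease and by gene structure. The 9 members in which human variants are known to cause Diamond-Blackfan anaemia, an inherited failure of red cell production (Rpl5, Rpl11, Rpl15, Rpl18, Rpl26, Rpl27, Rpl31, Rpl35 and Rpl35a), had median changes of 0.18 in fully grown and 0.30 in growing oocytes, with 7 and 9 above the control. With the GC and length trend removed the medians were 0.31 and 0.26, with 9 and 8 above. Small nucleolar RNA genes, whose RNAs guide modification of ribosomal RNA, lie inside 20 measured members in GENCODE, 39 in all. Those hosts had median changes of 0.18 in fully grown and 0.22 in growing oocytes. The 31 measured members without such a gene had 0.25 and 0.35. With the GC and length trend removed the hosts had 0.23 and 0.19, and the members without such a gene had 0.27 and 0.28. Polyadenylated RNA does not measure the small nucleolar RNAs themselves. By the start sites shown above, 19 measured members with a run of 8 or more pyrimidines in at least 1 promoter had median changes of 0.18 and 0.17 in fully grown and growing oocytes, and 20 measured members without one had 0.26 and 0.36.

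The 2 deletion comparisons share no library, so their changes can be set side by side. Of 51 members 41 were above the control at both stages, or 80.4%, against 41.5% of the 1206 genes at 100 FPKM or more. Rpl17 was below it at both, 8 were above it in growing and below it in fully grown oocytes, and Rpl7a was the reverse. Among those 1206 genes the counts for these 3 patterns were 361, 181 and 163. The members' signs rest on small changes. With median-ratio rescaling or equal sums 40 were above at both stages and Rpl5, Rpl7a and Rpl17 were below at both, and with the GC and length trend removed 41 were above at both and 0 below at both. Across the 51 members the 2 changes correlated with Pearson's r of 0.63 and Spearman's rho of 0.53, as a description, since genes of one library share its depth and composition. Without Rpl34 r was 0.49 and rho 0.51. Among the 1206 abundant genes r was 0.53 and rho 0.55. The difference between the fully grown and the growing change had a median of 0.0013 over the members, with 26 above 0 and 25 below.

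**Figure D3:**
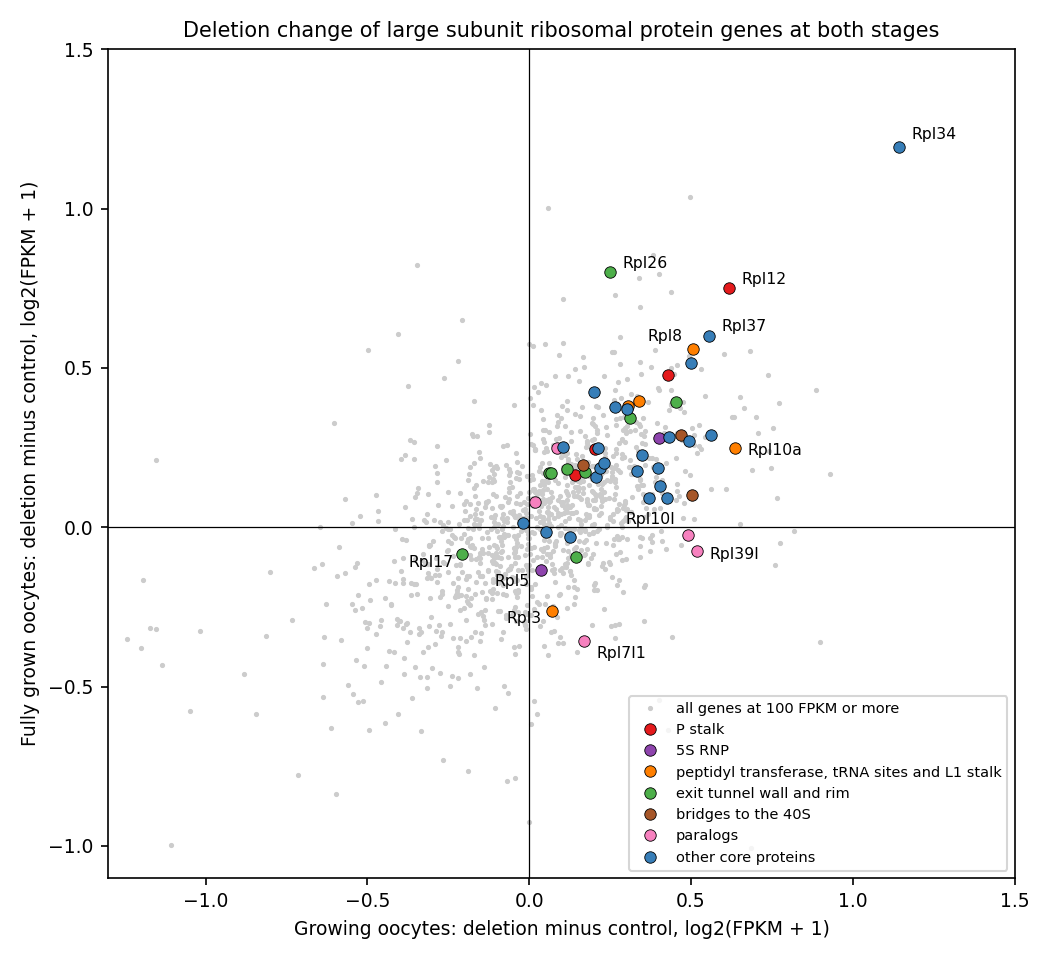
Change after deletion, deletion minus control in log2(FPKM + 1), in fully grown oocytes (vertical) against growing oocytes (horizontal), for 51 large subunit genes coloured by role and for all genes at 100 FPKM or more in grey; each value compares 1 library with 1 library, and grey points beyond the axes are not drawn. Of the 51 members 41 lie above 0 on both axes, and Rpl34 is farthest out at 1.14 and 1.19.

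Rpl34 was the only member past the size rule after deletion, at both stages. By that rule 1.08% of 7413 genes were higher and 1.09% lower in fully grown oocytes, and 2.62% of 8010 genes were higher and 2.51% lower in growing oocytes. Rpl34 (chr3:130429749-130433226, minus strand, mm9) held 202 FPKM in fully grown deletion oocytes against 87.8 FPKM in controls, and 196 FPKM in growing deletion oocytes against 88.0 FPKM in controls. By FPKM the deletion library was 2.30-fold the control in fully grown and 2.22-fold in growing oocytes, and the 2 stages were nearly equal within a genotype. The changes on the log2 scale were 1.19 and 1.14.

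A second row at the same place bears on this value. The deposited annotation has a second row, Rpl34-ps1, on the same strand at 130429755 to 130433247, which overlaps 3472 of the 3478 bases spanned by Rpl34. That row held 618 FPKM against 584 FPKM in fully grown deletion and control oocytes, and 500.4 FPKM against 428 FPKM in growing deletion and control oocytes. It was higher than the Rpl34 row in every library, and its changes were 0.08 and 0.23. Summed, the 2 rows held 820.2 FPKM against 672 FPKM in fully grown deletion and control oocytes, and 696 FPKM against 516 FPKM in growing deletion and control oocytes. The change of the sum was 0.29 in fully grown and 0.43 in growing oocytes, within the range of the other members and under the size rule. The part of the sum given to Rpl34 was 24.6% against 13.1% in fully grown deletion and control oocytes, and 28.1% against 17.1% in growing deletion and control oocytes. In GENCODE M21 Rpl34-ps1 is instead a processed copy on chromosome 6 whose sequence is identical to the Rpl34 coding part at 352 of 354 bases, with 185 bases in a row without a difference.

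Rpl26 and Rpl30 have the same layout. Rpl26 (chr11:68715068-68718036, plus strand, mm9) shares its place with Gm15772, which held 952 FPKM against 821 FPKM in fully grown deletion and control oocytes, and 812 FPKM against 619 FPKM in growing deletion and control oocytes. The sum with Rpl26 had changes of 0.37 in fully grown and 0.36 in growing oocytes, where Rpl26 alone had 0.80 and 0.25. Rpl30 (chr15:34370263-34372980, minus strand, mm9) shares its place with Gm12191, which held 502 FPKM against 394 FPKM in fully grown deletion and control oocytes, and 336 FPKM against 316 FPKM in growing deletion and control oocytes. The sum with Rpl30 had changes of 0.29 and 0.17, where Rpl30 alone had 0.10 and 0.50. With these 3 sums in place of the single rows, no member passed the size rule after deletion, and 42 in fully grown and 49 in growing oocytes were still above the control. Which row a fragment belongs to cannot be read from these tables, so single changes of Rpl26, Rpl30 and Rpl34 are uncertain.

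**Figure D4:**
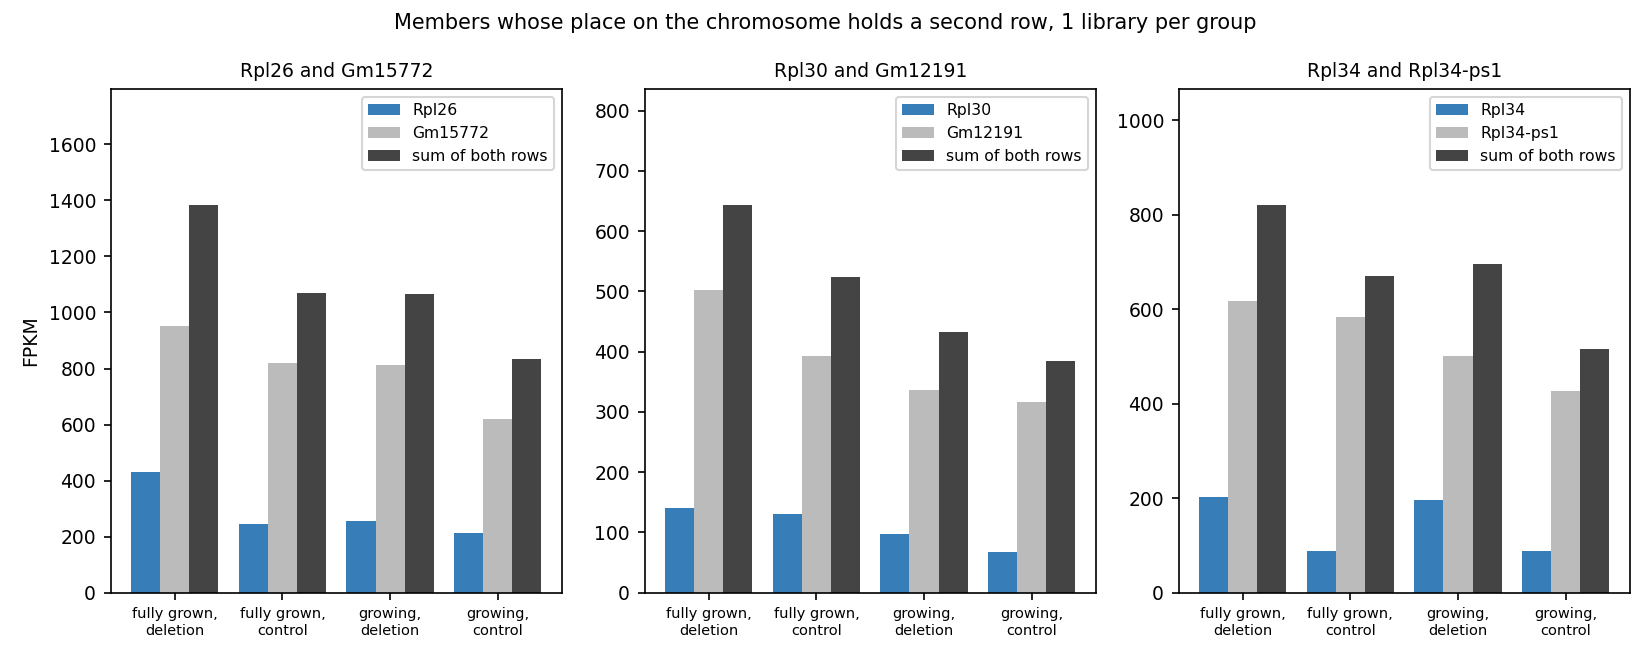
FPKM of Rpl26, Rpl30 and Rpl34 (blue), of the second row at the same place and strand (grey) and of their sum (black), 1 library per group of bars, with fully grown deletion, fully grown control, growing deletion and growing control from left to right. The second row is higher than the gene's own in all 12 pairs, and the Rpl34 bars differ more between deletion and control (202 against 87.8 FPKM in fully grown oocytes) than the summed bars (820.2 against 672 FPKM).

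Several of the paralogs, though not all, are expressed in few tissues or replace a core protein in some ribosomes. The whole group was read apart from the core. Of 5 measured, 2 were above the control in fully grown and 5 in growing oocytes, with medians of -0.02 and 0.17. With the GC and length trend removed 4 of 5 were above in fully grown and 5 of 5 in growing oocytes, with medians of 0.07 and 0.22. Rpl36al, an autosomal relative of Rpl36a, was the most abundant, at 1475 FPKM against 1242 FPKM in fully grown deletion and control oocytes, and at 1053 FPKM against 992 FPKM in growing deletion and control oocytes. It was above Rpl36a in every library, which held 669.9 FPKM against 509 FPKM in fully grown deletion and control oocytes, and 563 FPKM against 444 FPKM in growing deletion and control oocytes. Rpl39l, known for its high level in male germ cells, was at 245 FPKM against 257 FPKM in fully grown deletion and control oocytes, and at 248 FPKM against 173 FPKM in growing deletion and control oocytes. Rpl22l1 was at 140.2 FPKM against 133 FPKM in fully grown deletion and control oocytes, and at 111 FPKM against 109 FPKM in growing deletion and control oocytes. It was above its core relative Rpl22 in every library, whose 4 values lay between 34.3 and 55.7 FPKM.

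Rpl10l, an intronless relative of X-linked Rpl10 known from the male germ line, and Rpl7l1 were low. Rpl10l held 4.61 FPKM against 4.70 FPKM in fully grown deletion and control oocytes, and 17.0 FPKM against 11.8 FPKM in growing deletion and control oocytes. Rpl7l1, which encodes a relative of RPL7, held 12.5 FPKM against 16.3 FPKM in fully grown deletion and control oocytes, and 20.6 FPKM against 18.2 FPKM in growing deletion and control oocytes. For both, the 2 growing libraries were above the 2 fully grown ones. Rpl10 itself held 984.3 FPKM against 755 FPKM in fully grown deletion and control oocytes, and 1061 FPKM against 859 FPKM in growing deletion and control oocytes, so Rpl10l values stayed far below those of its parent.

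The stages were compared within each genotype. In deletion oocytes 31 of 51 were higher in fully grown than in growing oocytes, where 41.3% of all genes were, and in control oocytes 39 of 51 were, against 39.3% of all genes. These members are 60.8% in deletion and 76.5% in control oocytes. Of the 1206 genes at 100 FPKM or more, 60.4% and 62.9% were higher. With the trend on GC content and length removed the members' counts were 25 and 23 of 51, against 41.4% of all genes in each genotype. The median changes, fully grown minus growing in log2(FPKM + 1), were 0.10 in deletion and 0.13 in control oocytes, but with that trend removed they were -0.03 and -0.05, so their direction depends on that step. Genes at 100 FPKM or more had medians of 0.09 and 0.09 in deletion and control oocytes, close to those of the members. The small subunit had medians of 0.17 and 0.17. Over all genes the median was -0.11 in deletion and -0.10 in control oocytes, or -0.11 and -0.07 with the GC and length trend removed.

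By the size rule 2.7% of 7957 genes were higher and 8.75% lower in fully grown than in growing deletion oocytes. In control oocytes 1.11% of 7661 genes were higher and 3.07% lower. No member was higher by the rule in either genotype. Rpl10l was lower in both, with changes of -1.68 in deletion and -1.17 in control oocytes. Rpl9, which encodes a core protein near the base of the P stalk, was lower by the rule in control oocytes. It held 63.9 FPKM in fully grown against 125 FPKM in growing deletion oocytes, and 47.3 FPKM in fully grown against 109 FPKM in growing control oocytes. Its changes were -0.96 in deletion and -1.18 in control oocytes, so the 2 genotypes lie on either side of the rule with similar values. With the GC and length trend removed the change in deletion oocytes was -1.16, past the rule. Rpl3 was also lower in fully grown oocytes, with changes of -0.79 in deletion and -0.46 in control oocytes.

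The largest increases with growth were those of Rpl26, Rpl23 and Rpl30 in deletion oocytes, and of Rpl30, Rpl23 and Rpl39l in controls. A change of 0.5 or more was reached by 3 members in deletion oocytes, where 11.3% of all genes reached it, and by 3 in control oocytes, where 5.46% did. Rpl23, whose protein can bind MDM2 like that of Rpl11, held 381 FPKM in fully grown against 257 FPKM in growing deletion oocytes, and 335 FPKM in fully grown against 220.3 FPKM in growing control oocytes. Its changes of 0.57 and 0.60 were nearly equal in deletion and control oocytes. Rpl30 had changes of 0.53 and 0.93, and the sum with its second row 0.57 and 0.45. Rpl26 had 0.75 and 0.20, and the sum with its second row 0.37 and 0.36. For Rpl39l the growth change was -0.02 in deletion and 0.57 in control oocytes, from 245 and 248 FPKM in fully grown and growing deletion oocytes and from 257 and 173 FPKM in fully grown and growing controls.

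**Figure D5:**
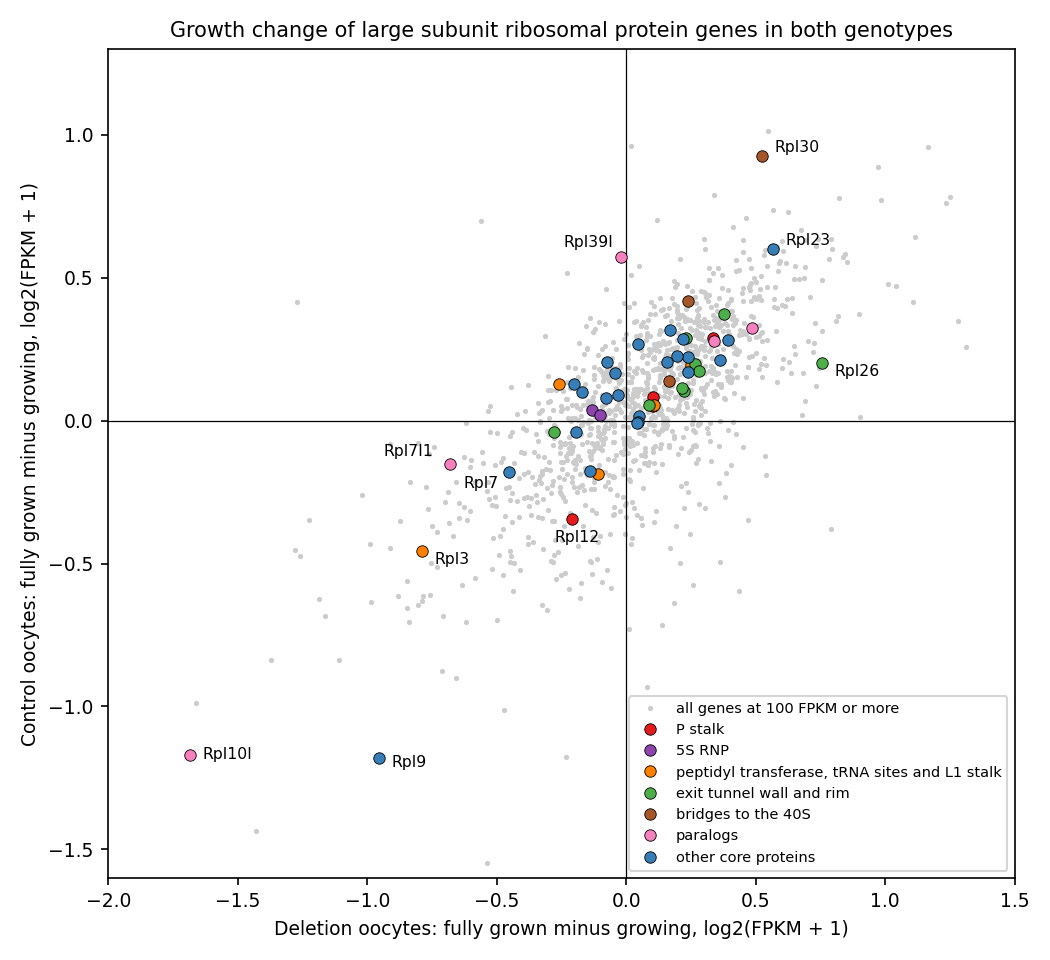
Change with growth, fully grown minus growing in log2(FPKM + 1), in control oocytes (vertical) against deletion oocytes (horizontal), for 51 large subunit genes coloured by role and for all genes at 100 FPKM or more in grey; each value compares 1 library with 1 library, and grey points beyond the axes are not drawn. Rpl10l and Rpl9 lie at the lower left with control changes of -1.17 and -1.18, and 29 of 51 members lie above 0 on both axes.

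The 2 growth comparisons share no library either. Of 51 members 29 were higher in fully grown oocytes in both genotypes and 10 were lower in both. The first count is 56.9%, against 50% of the 1206 abundant genes. Another 10 were higher in control and lower in deletion oocytes, and 2 the reverse. Across members r was 0.85 and rho 0.79, as a description, or 0.73 and 0.76 without Rpl10l and Rpl9, and among the abundant genes r was 0.83 and rho 0.69. Roles differed in their medians. The tunnel genes had 0.23 in deletion and 0.17 in control oocytes, the bridge genes 0.24 and 0.42, the P stalk 0.10 and 0.07, and the 5S RNP genes -0.12 and 0.03. The genes of the peptidyl transferase centre, tRNA sites and L1 stalk had -0.11 and 0.05. The paralogs had -0.02 and 0.28, and the other core genes 0.05 and 0.17. With the GC and length trend removed the medians were 0.23 and 0.02 for the tunnel genes, 0.09 and 0.16 for the bridges, 0.10 and -0.05 for the P stalk, and -0.18 and -0.05 for the 5S RNP genes, in deletion and control oocytes. In the same order they were -0.27 and -0.36 for the peptidyl transferase, tRNA site and L1 stalk genes. They were -0.31 and -0.13 for the paralogs, and -0.05 and -0.04 for the other core genes.

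Assembly factors of the 60S were lower by the size rule about as often as other genes. In deletion oocytes 5 of the 51 that reached 5 FPKM were lower, where 8.75% of all such genes were, and none higher. Of all 59, 26 were above the growing library, with a median of -0.15. In control oocytes 1 of 47 was lower, where 3.07% of all such genes were, and none higher, with 31 of 59 above and a median of 0.01. A change of -0.5 or less was seen for 20 of 59 in deletion oocytes, against 3021 of all 11806 genes. In control oocytes it was seen for 15 of 59, against 2042 of all genes. The gene lower in both genotypes was Bop1, whose protein is part of the PeBoW complex that processes large subunit RNA. It held 10.4 FPKM in fully grown against 32.1 FPKM in growing deletion oocytes, and 5.75 FPKM in fully grown against 16.4 FPKM in growing control oocytes. Nop2, Gltscr2, Sdad1 and Grwd1 were the others in deletion oocytes, with changes of -1.76, -1.95, -1.08 and -1.06, against -1.15, -0.81, -0.43 and -0.68 in controls. Nop2 missed the rule in controls by level only, with 1.54 FPKM in fully grown against 4.62 FPKM in growing oocytes, under its 5 FPKM minimum. In the small subunit Rps23 was lower by the rule in control oocytes, with 150.4 FPKM in fully grown against 305 FPKM in growing oocytes.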

How the data were processed

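Polyadenylated RNA of 4 libraries, each of 10 oocytes, was measured by Smart-seq2 with Tn5 library preparation, per the labels' protocols. The authors deposited FPKM values for 23235 gene symbols. The build mm9 and the tools Cufflinks 2.2.1, Bowtie2 2.1.0, TopHat2 2.0.11 and CASAVA 1.8 are listed in the submitters' processing notes. What each did, the gene models, the use of strand and the treatment of multi-mapping reads: not given in the sources used here. Depth is unknown.

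In the deposited FPKM table the symbols run in an order that ignores case, while the values match symbols sorted by byte, with capitals before lower case. The values were therefore re-paired, which left 4113 rows and none of the 52 members in place. As deposited, the row of Rpl3l had a mean of 4104 FPKM and that of Rpl39 0.312 FPKM, and after re-pairing Rpl3l had 0.312 FPKM and Rpl39 2384 FPKM. The pairing is an inference from the values and was not checked with the submitters.

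Changes are differences in log2(FPKM + 1). With 1 library per group no test was run. The planned rule of size was 5 FPKM in 1 of 2 libraries and a change of at least 1. It compares 2 libraries, not 2 conditions, and its calculation was tested on simulated data. Named members are those past the rule, the 5 largest deletion changes and the 3 largest growth changes each way, the 3 most abundant, and the stalk, 5S RNP, bridge and paralog groups. Rpl10, Rpl14, Rpl15, Rpl18, Rpl22, Rpl36a and the genes beyond the members other than Dcaf13 were named after their values were seen. Members, lists and motifs were chosen with earlier results of these data known. A gene that the rule also names is not reported here. Alternatives changed the pseudocount, the filter, the scaling, the GC and length trend, the pairing and the paralogs. Leaving out Rpl34 and summing rows of a shared place were added after seeing the data. Sequences came from RefSeq (GRCm38.p6) and GENCODE M21 and were matched by symbol, while coordinates of genes are those of the deposited annotation. Python 3.11.15, pandas 2.3.3, numpy 2.4.6, scipy 1.17.1, Biopython 1.88 and matplotlib 3.10.9 were used.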

Additional observations from a re-analysis of the deposited data

Results flagged for a closer look

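Among the 51 measured members 9 had deletion changes of opposite sign at the 2 stages, each from 1 library against 1 library. Of these members 8 were above the control in growing and below it in fully grown oocytes, and 1 was the reverse. Those counts were 181 and 163 among the 1206 genes at 100 FPKM or more, and 2275 and 1810 among all 11806 genes. Opposite signs were thus not more common among members than among other genes. The value given is the change in fully grown oocytes minus that in growing oocytes, in log2(FPKM + 1), and none of these differences was tested. With the GC and length trend removed 5 of the 9 (Rpl5, Rpl10l, Rpl21, Rpl31 and Rpl39l) had the same sign at both stages, and with median-ratio rescaling or equal sums Rpl5 and Rpl7a did. Other members took opposite signs at these settings. The number with opposite signs was therefore 10 with that trend removed and 8 with median-ratio rescaling or equal sums. Of the 9 values above, the 3 largest in size were those of paralogs, at -0.59 for Rpl39l, -0.53 for Rpl7l1 and -0.51 for Rpl10l. Rpl3 followed with -0.33 and Rpl31 with -0.24. The value was -0.17 for Rpl5, -0.16 for Rpl14 and -0.066 for Rpl21. Rpl7a was the only one with a positive value, at 0.030. Rpl39l and Rpl10l were nearly level in fully grown oocytes, with changes of -0.07 and -0.02, and above the control in growing oocytes by 0.52 and 0.49.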

How the results depend on the processing

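No paired analysis was possible because each group held 1 library. Counts of members above the control ranged between 41 and 48 in fully grown and between 44 and 49 in growing oocytes, of 50 to 52 members, over the alternatives that kept the paralogs. Without the 6 paralogs they were 40 and 44 of 46, and with the GC and length trend removed 48 and 44 of 51. A change of pseudocount cannot alter these counts. The deposited pairing mostly exchanges values among the members. Its counts and medians over the set therefore cannot tell whether the re-pairing is right. The cause of the moves below was not tested. For the deletion change in fully grown oocytes the median moved to 0.14 with median-ratio rescaling, 0.18 with equal sums (TPM), 0.26 with the GC and length trend removed, 0.19 with the deposited pairing, 0.24 without the 6 paralogs and 0.23 with shared rows summed. In growing oocytes it moved to 0.25, 0.27, 0.23 and 0.25 under the first 4 of these, and to 0.28 with no filter and 0.28 without Rpl34. Rescaling moved the median of all genes too. In fully grown oocytes that median went from 0.03 to -0.03 with median-ratio rescaling and to 0.01 with equal sums. In growing oocytes it went from 0.07 to 0.03 and 0.04. Members past the size rule numbered 0 at both stages without Rpl34 and 0 with shared rows summed.

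For growth in deletion oocytes the median was 0.12 with median-ratio rescaling, 0.074 with equal sums, 0.11 with the deposited pairing, 0.094 with no filter and -0.029 with the GC and length trend removed, a reversal. There the size rule held for 2 members with that trend removed and 0 without paralogs. In control oocytes the median was 0.16, 0.087 and 0.17 under the same first 3 settings, 0.14 with shared rows summed and -0.047 with the trend removed, a reversal, where 23 members were above. Without paralogs 1 member passed the rule. With the trend removed the median of all genes was -0.11 in deletion and -0.07 in control oocytes. The stage difference of the deletion change was -0.012 with median-ratio rescaling and -0.015 without Rpl34, both reversals, and otherwise 0.018 with equal sums, 0.055 with the trend removed, and 0.0090 with no filter or without paralogs.

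With the deposited pairing Rpl9 in control oocytes was reversed at 0.052, Rpl10l had -0.21 in deletion and -0.34 in control oocytes, and Rpl34 had 0.17 and 0.07 in fully grown and growing oocytes, so Rpl9, Rpl10l and Rpl34 no longer passed the rule. With 1 library per group, single-gene differences have no error, and depth is unknown, so low values such as those of Rpl10l are the least certain.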
